A study of Mus musculus with 3 samples.

Results

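The comparison set 1 ATAC-seq library of sorted mouse skin tumour cells against another, region by region. Its members were the regions of a deposited count table that lay outside the mitochondrial genome and held at least 20 counts in 1 of the 2 count columns compared. There were 65821 such regions among 95840 nuclear regions (68.7%), and they held 94.1% of the nuclear counts of the column labelled control Epcam+ and 95.3% of those of the column labelled Fat1 cKO Epcam-. The tumours were skin squamous cell carcinomas raised with DMBA, a mutagen, and TPA, a tumour promoter, in mice of mixed background. The control genotype was K14Cre;RYFP and the deleted genotype was K14Cre;Fat1fl/fl,RYFP, so that the control also carried the keratin 14 Cre and the YFP reporter, and the reporter and the deletion were limited to cells in which that keratinocyte promoter had been active. Cells were sorted by Epcam, an adhesion protein of the epithelial cell surface: Epcam+ cells of a control tumour, Epcam+ cells of a Fat1 cKO tumour, and Epcam- cells of a Fat1 cKO tumour that carries the same tumour name in its title. Each group was 1 library, made from 100000 cells, and ages were not given. The library labelled Fat1 cKO Epcam+ is not a side of the comparison, and its values stand beside the others for orientation.

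ATAC-seq uses a transposase that inserts sequencing adapters where DNA is not wrapped tightly, so a count over a region measures how accessible that region was. Fat1 is a very large atypical cadherin of the cell surface and a tumour suppressor of squamous cancers. In an epithelial-to-mesenchymal transition (EMT), carcinoma cells lose adhesion and keratin genes and gain genes of motile, matrix-producing cells, through repressors such as Zeb1, Zeb2, Snai1 and Twist1 that bind E-box letters in epithelial promoters. In intermediate, or hybrid, states both programmes are active in the same cells. In sorted bulk cells, fewer cells of a type and less accessible chromatin per cell cannot be told apart.

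The column names did not match the sort at Epcam itself. The region over the Epcam promoter held 69 counts in the control Epcam+ column, 205 in the Fat1 cKO Epcam+ column and 328 in the Fat1 cKO Epcam- column. The column named for cells sorted without Epcam was thus 3.90-fold above the column named for Epcam+ control cells (log2 ratio 1.93, 95% interval 1.58 to 2.36). Its lead over the Fat1 cKO Epcam+ column is in counts before scaling, and that library was smaller (effective sizes 3657152 and 5499620). In the other Epcam regions the Fat1 cKO Epcam+ column held more counts than the Fat1 cKO Epcam- column, as at 115, 277 and 210. All ratios below are of CPM, counts scaled to a library size of 1000000 with TMM factors, and log2 ratios carry a prior count of 2. All intervals cover counting error in 1 library each, and since no molecular identifiers mark the reads, copies of 1 molecule can be counted more than once. There is no replicate, and so no test of a difference. The table also holds a yes or no peak call per library, and the calls followed the counts of the other name. Among the 433 regions at least 8-fold higher in the Fat1 cKO Epcam- count column, 97.5% were called as peaks in control Epcam+ and 1.15% in Fat1 cKO Epcam-. Among the 1154 regions at least 8-fold lower, 1.56% were called in control Epcam+ and 97.9% in Fat1 cKO Epcam-. The calls labelled Fat1 cKO Epcam+ lay between, at 13.6% and 39.4%.

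**Figure D1:**
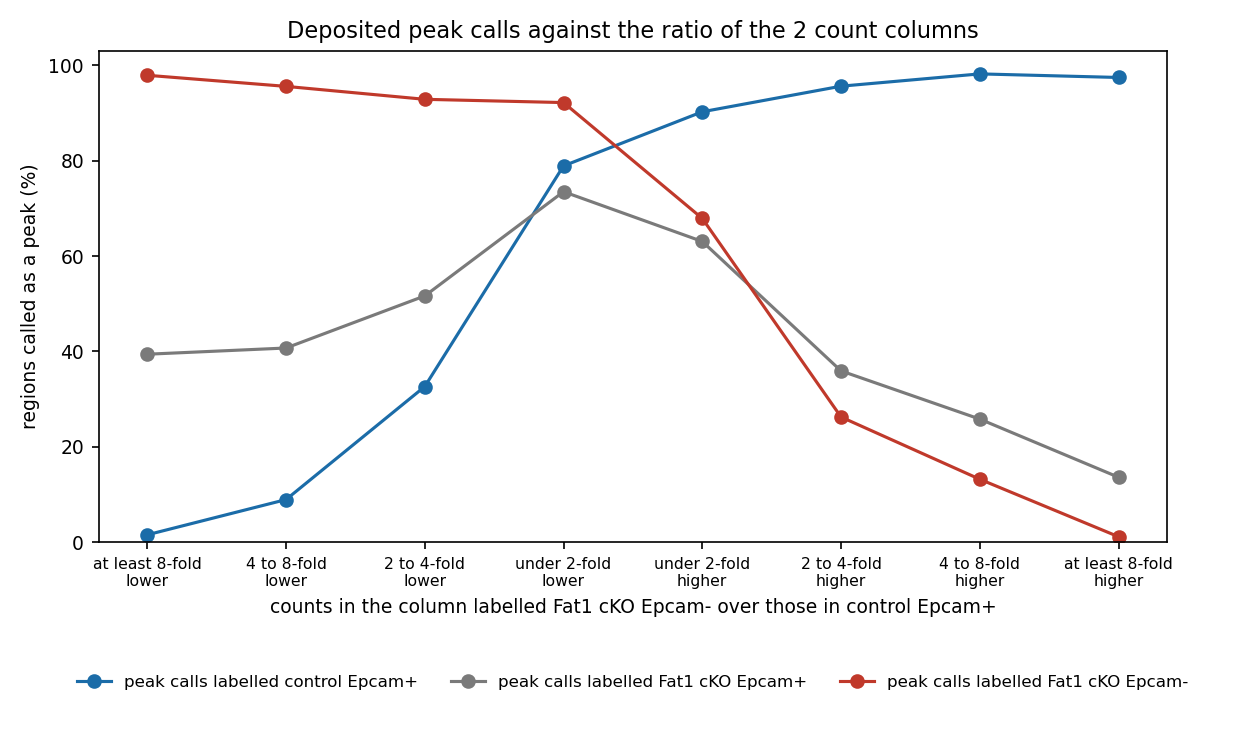
Share of member regions called as a peak (y axis, percent) in each library, with regions grouped by the ratio of the counts labelled Fat1 cKO Epcam- to those labelled control Epcam+ (x axis). Calls labelled control Epcam+ run from 1.56% in the lowest group to 97.5% in the highest, and calls labelled Fat1 cKO Epcam- run the other way, from 97.9% to 1.15%.

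Regions called in a single library gave the same picture. Of the 14531 members called only in control Epcam+, 10962 (75.4%) were higher by 2-fold or more in the Fat1 cKO Epcam- count column and 9 were lower. Their median log2 ratio was 1.49. Of the 7552 members called only in Fat1 cKO Epcam-, 5674 (75.1%) were lower in that same count column and 14 were higher, with a median of -1.65. The 1246 members called only in Fat1 cKO Epcam+ were 280 higher and 217 lower. The labels do not say which of the 2 kinds of column carries the exchanged names. The Epcam counts go against the names of the count columns. So do gene lists given below. Of 25 epithelial regulators 16 were at least 2-fold higher in the Fat1 cKO Epcam- count column and 0 lower. Of 11 EMT factors 1 was higher and 7 lower there, while of 13 hemidesmosome genes 0 were higher and 1 lower. Regions of the Y chromosome summed to 75.2, 59.6 and 217 CPM in the columns labelled control Epcam+, Fat1 cKO Epcam+ and Fat1 cKO Epcam-, so there the Fat1 cKO Epcam+ column lay beside the control column and apart from the column that shares its tumour name. On chromosomes 4 (48251, 60792 and 60990 CPM) and 14 (29784, 36525 and 36914) it lay beside that column instead. On chromosomes 2 (62492, 60591 and 75574 CPM), 6 (66292, 73958 and 53566) and 7 (85385, 100805 and 67015) it was nearer to the control column. No value here settles the names, so every "higher" and "lower" below is a direction between names of count columns: the column labelled Fat1 cKO Epcam- over the column labelled control Epcam+. If the count columns are the ones exchanged, each "higher" is a region more accessible in the control Epcam+ cells and each "lower" one is more accessible in the Fat1 cKO Epcam- cells. Values of the 3 columns are given in a fixed order: the control column (labelled control Epcam+), then the column labelled Fat1 cKO Epcam+, then the Epcam- column (labelled Fat1 cKO Epcam-).

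The targeted gene was read first. Fat1 held 714, 698 and 1369 counts over 20 regions (log2 ratio 0.65, interval 0.52 to 0.78), with 7 of 15 member regions higher and 0 lower. The 2 regions with most counts, both inside the gene, held 181, 169 and 385 (0.80) and 228, 163 and 282 (0.02). Counts pass through the gene in both Fat1 cKO columns, and since the deleted exons are not given here, this is no check of the deletion.

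The promoters below show 2 sets of motif letters whose shares differed between higher and lower regions, as given after them. Sequences are 300-base RefSeq windows of build GRCm38.p6, from 250 bases before a transcription start to 50 bases after it, written on the strand of the gene, and each overlaps a member region by at least 150 bases. In the first group the capitals mark the E-box letters CAGGTG on either strand. Positions count from the start site, with -1 the base before it. Epcam at chr17:87635729-87636028, plus strand, has its matches beginning at -187 and -19. Crb3, a polarity protein of the apical membrane of epithelial cells, at chr17:57061951-57062250, plus strand, has 4 matches, at -118, -63, -7 and +26. Grhl3, a grainyhead factor of the epidermal barrier, at chr4:135573583-135573882, minus strand, has matches at -19 and +9. Krt5, a keratin of basal keratinocytes, at chr15:101712856-101713155, minus strand, has 1 match, at -128.
Epcam: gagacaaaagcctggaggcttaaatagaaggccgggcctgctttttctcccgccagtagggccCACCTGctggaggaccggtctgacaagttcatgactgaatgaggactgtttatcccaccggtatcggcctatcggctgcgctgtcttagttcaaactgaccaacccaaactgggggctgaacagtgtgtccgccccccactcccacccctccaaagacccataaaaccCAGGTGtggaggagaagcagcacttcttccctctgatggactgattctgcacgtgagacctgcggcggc
Crb3: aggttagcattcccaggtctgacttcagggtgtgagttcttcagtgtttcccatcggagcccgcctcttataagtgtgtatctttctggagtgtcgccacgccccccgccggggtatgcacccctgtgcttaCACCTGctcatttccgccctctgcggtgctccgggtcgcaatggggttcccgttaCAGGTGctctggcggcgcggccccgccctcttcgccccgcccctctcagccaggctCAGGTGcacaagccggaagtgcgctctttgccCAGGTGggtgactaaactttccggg
Grhl3: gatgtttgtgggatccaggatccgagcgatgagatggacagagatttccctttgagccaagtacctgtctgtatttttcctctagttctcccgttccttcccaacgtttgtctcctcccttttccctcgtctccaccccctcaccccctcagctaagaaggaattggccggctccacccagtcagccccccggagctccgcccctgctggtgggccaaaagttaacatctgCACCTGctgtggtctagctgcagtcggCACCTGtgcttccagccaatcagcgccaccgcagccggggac
Krt5: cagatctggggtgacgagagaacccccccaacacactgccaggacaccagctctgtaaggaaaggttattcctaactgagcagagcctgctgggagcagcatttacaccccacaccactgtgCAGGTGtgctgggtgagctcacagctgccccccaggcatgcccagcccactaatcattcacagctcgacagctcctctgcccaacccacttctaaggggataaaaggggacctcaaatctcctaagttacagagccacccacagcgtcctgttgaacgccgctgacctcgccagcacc
All 4 windows overlap higher regions. The Epcam region begins at chr17:87635827, so the Epcam match at -187 lies outside it. The Crb3 region held 18, 71 and 135 counts (6.15-fold), the Grhl3 region 18, 72 and 99 (4.51-fold) and the Krt5 region 15, 58 and 75 (4.10-fold), so the control column was the lowest of the 3 at each.

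In the second group the capitals mark the AP-1 letters TGANTCA, the site of Fos and Jun dimers, on either strand. Col6a1, a chain of collagen VI, at chr10:76725995-76726294, minus strand, has its match at -90. Cald1, the actin-binding protein caldesmon, at chr6:34709194-34709493, plus strand, has its match at -197, before an internal start of the gene.
Col6a1: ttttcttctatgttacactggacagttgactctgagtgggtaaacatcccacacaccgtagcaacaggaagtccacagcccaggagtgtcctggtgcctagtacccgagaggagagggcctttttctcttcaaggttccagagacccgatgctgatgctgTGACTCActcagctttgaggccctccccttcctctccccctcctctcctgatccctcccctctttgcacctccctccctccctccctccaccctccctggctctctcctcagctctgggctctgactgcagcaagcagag
Cald1: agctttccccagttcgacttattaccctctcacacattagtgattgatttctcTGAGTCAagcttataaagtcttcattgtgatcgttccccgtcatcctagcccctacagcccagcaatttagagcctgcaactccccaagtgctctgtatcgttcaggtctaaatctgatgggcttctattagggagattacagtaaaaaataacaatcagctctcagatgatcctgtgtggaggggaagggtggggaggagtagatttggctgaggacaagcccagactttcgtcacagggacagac
Both lie in lower regions. The Col6a1 region held 54, 23 and 20 counts and was 3.29-fold lower in the Epcam- column. The Cald1 region held 206, 131 and 75 counts and was 3.35-fold lower, while the region at the gene's outer start held 121, 118 and 89 counts (1.66-fold lower).

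Over all promoters, 11013 member regions lay over a window, of which 1238 (11.2%) were higher by 2-fold or more and 577 (5.24%) lower. The E-box letters were present in 33.6% of the windows of higher regions, 17.0% of those under 2-fold apart and 12.7% of those of lower regions, against 20.2% of all 32851 windows in the table. The AP-1 letters ran the other way between the changed classes, with 11.8% of higher windows, 5.70% of those under 2-fold apart, 18.2% of lower windows and 7.81% of all. RUNX letters (TGTGGT) stood in 13.7% of higher and 21.1% of lower windows, against 16.8% of all. TEAD letters (GGAATG), 14.9% and 16.8%, and CCAAT, 32.8% and 36.6%, differed little between the classes. The grainyhead letters AACCGGTT were in 3 of the higher and 2 of the lower windows. No pair of these motifs was removed where they overlap in a window.

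The classes also differ in base composition. The median GC content was 60% in higher windows, 53.3% in lower ones and 62% in those under 2-fold apart, with a median of 14, 7 and 22 CpG dinucleotides. The GC box GGGCGG followed that order, with 54.2%, 38.1% and 68.5%. Windows were therefore split at 15 CpG for the E-box and AP-1 letters. The RUNX letters were not split, so their shares are not separated from base composition. With fewer than 15, the E-box letters were in 33.0% of 642 higher and 13.2% of 410 lower windows, and with 15 or more in 34.2% of 596 higher and 11.4% of 167 lower windows. The E-box letters were thus more frequent in higher windows in both CpG classes. The AP-1 letters were in 19% of higher and 24.4% of lower windows with fewer than 15 CpG, and in 4.03% and 2.99% with 15 or more. The order of higher and lower windows was thus not the same in the 2 CpG classes for AP-1, and the CpG-poor class, where the letters are more common, made up 642 of 1238 higher and 410 of 577 lower windows. Among the listed genes below, 24 of 46 higher promoter regions held the E-box letters, as did 6 of 20 lower ones and 24 of 151 under 2-fold apart. The AP-1 letters were in 8 of the 46 higher, 3 of the 20 lower and 7 of the 151 under 2-fold apart, so the lower promoters of listed genes did not hold them more often than the higher ones. A match says only that the letters are present.

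**Figure D2:**
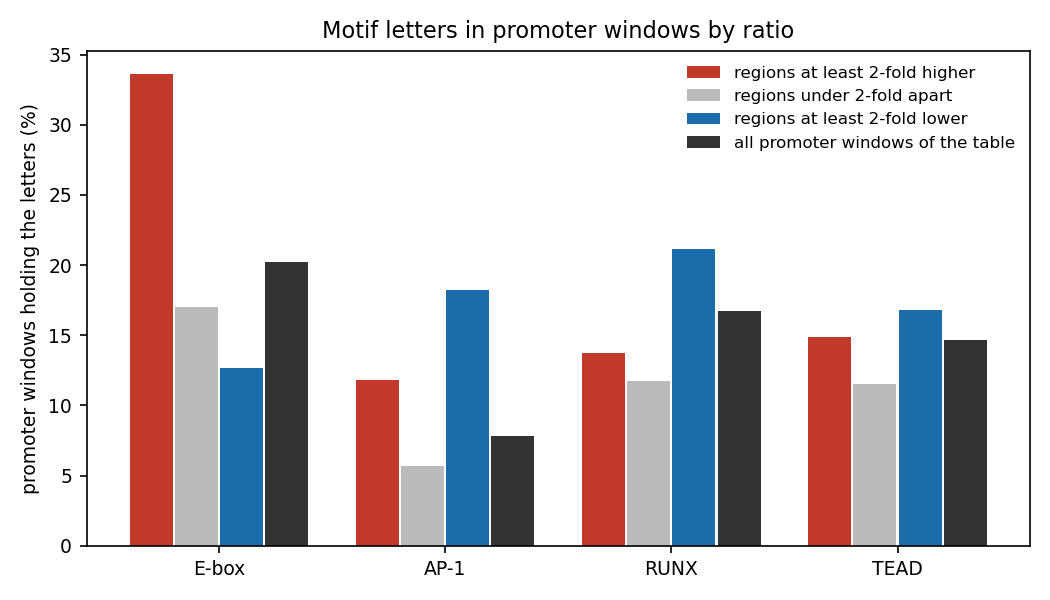
Percent of promoter windows (y axis) that hold the letters of 4 motifs (x axis), for windows of regions at least 2-fold higher (red), under 2-fold apart (grey), at least 2-fold lower (blue) and all windows of the table (black). The E-box bar of higher regions, 33.6%, stands above the other 3, and the AP-1 and RUNX bars are tallest for lower regions.

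Across all member regions, 18677 (28.4%) were higher by 2-fold or more in the Epcam- column and 12686 (19.3%) lower. The median log2 ratio was 0.19, with quartiles of -0.68 and 1.14. The excess of higher regions was limited to moderate ratios. At 4-fold or more the 2 sides were even, with 4960 higher and 4876 lower regions. At 8-fold there were 433 higher and 1154 lower, and at 16-fold 25 higher and 155 lower. A count of 20 equals 3.64 CPM in the Epcam- column and 4.44 CPM in the control column, so the minimum admitted weaker regions on the higher side. With the minimum set at the same CPM in both, a setting chosen after seeing the data, 16614 regions were higher and 12686 lower. Regions whose larger count was 19, just outside the minimum, numbered 1768 with a median log2 ratio of 0.05, and those at 20 numbered 1723 with a median of 0.03. The other 30019 nuclear regions were under the minimum.

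**Figure D3:**
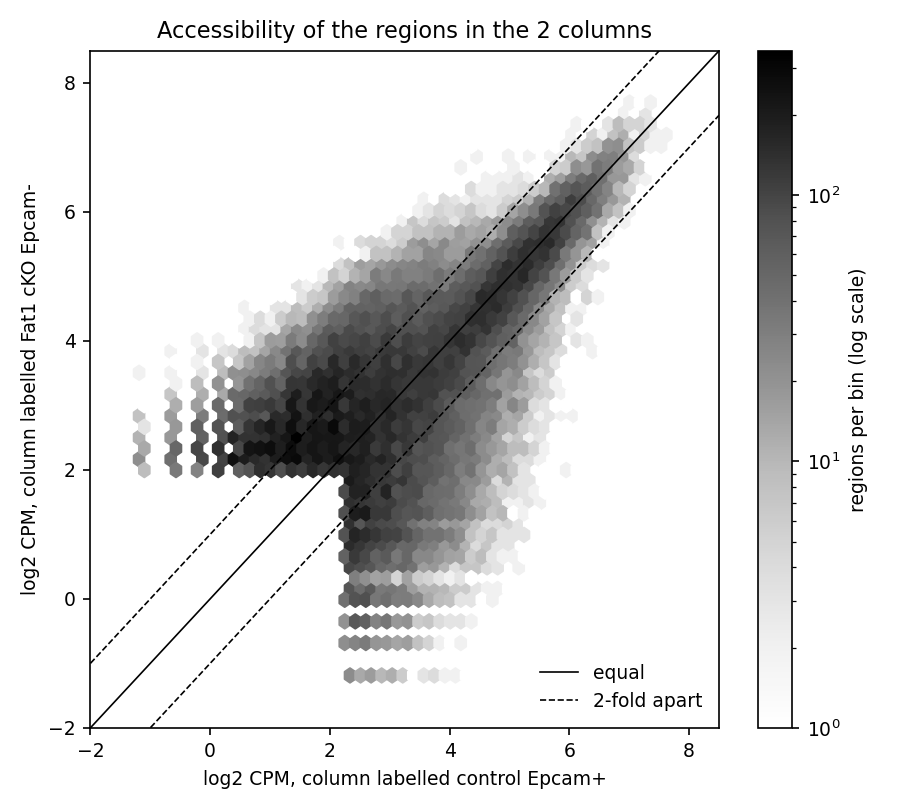
log2 CPM of the 65821 member regions in the column labelled control Epcam+ (x axis) and in that labelled Fat1 cKO Epcam- (y axis), with the number of regions per bin in grey on a log scale, a solid line of equality and dashed lines 2-fold apart. Regions with high counts lie near equality, those with low counts spread to both sides, and the empty lower left corner is the count minimum.

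Regions that differed lay over promoters less often than even ones. Regions over a promoter window made up 6.63% of the higher and 4.55% of the lower regions, against 26.7% of those under 2-fold apart. Higher regions were narrower (median 638 bp) than lower ones (760 bp) and than those under 2-fold apart (919 bp). Of the higher regions 50.7% lay inside a gene body and 19.4% more than 50 kb from any gene, against 60.6% and 10.8% of the regions under 2-fold apart. The median CPM of higher regions was 2.44 in the control column, 3.55 in the Fat1 cKO Epcam+ column and 8.73 in the Epcam- column. For lower regions it was 9.54, 5.47 and 2.36. The Fat1 cKO Epcam+ column lay between the others in both medians and was nearer to the control column in 64.0% of the higher and 54.9% of the lower regions. It was nearer to that column in 57.7% of all members and 55.3% of regions under 2-fold apart, so the lower regions were near the background.

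The balance differed between chromosomes. The median log2 ratio was -0.31 over chromosome 7 and -0.27 over chromosome 6, and at the other end 0.45 over chromosome 2, 0.49 over chromosome 14 and 0.52 over chromosome 4. The 21 member regions of the Y chromosome had a median of 3.34. When each chromosome's median is set to 0, the gene counts below shift from 1959 higher and 963 lower to 1477 higher and 1237 lower, so part of the excess of higher genes moves with whole chromosomes. Whether copy number differs between these tumours was not tested. Genes below that lose their 2-fold difference in this way are marked.

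Regions were next summed by gene, with each region given to the nearest protein-coding gene body within 50 kb. Of 15754 genes with 20 counts in 1 of the 2 columns, 1959 (12.4%) were higher by 2-fold or more in the Epcam- column and 963 (6.11%) lower. The median over all of them was a log2 ratio of 0.07. These shares are the background for the gene groups that follow. No listed marker gene that was measured had 0 counts in either column. "Higher" and "lower" in counts of genes below mean at least 2-fold in these sums. A gene's log2 ratio is in places also given "near its gene ends" (regions within 1 kb of either end), within 10 kb, or as the median over its regions, chosen from the settings that end or turn a difference or move it by over 1.5 times.

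Regulators of epithelial identity were higher as a group. Of 25 transcription and splicing regulators, 16 were higher and 0 lower, all 25 log2 ratios were above 0, and their median was 1.13. Within them 111 of 179 member regions were higher and 3 lower. Esrp1, which sets epithelial splicing, held 164, 588 and 1079 counts over 8 regions and was 5.39-fold higher (log2 ratio 2.42, interval 2.19 to 2.68). Ovol1, a zinc finger repressor of mesenchymal genes in epidermis, held 47, 81 and 287 counts (5.01-fold). In both the control column was lowest and the Epcam- column highest.

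The grainyhead factors, which keep epithelial enhancers open, differed among themselves. Grhl3 held 188, 484 and 886 counts (3.86-fold) with all 10 of its member regions higher, and Grhl2 held 321, 836 and 1093 counts (2.79-fold) with 12 of 14 higher. Grhl1 held 529, 426 and 800 counts and stayed within 2-fold (log2 ratio 0.31). Tfap2c, an AP-2 factor, held 178, 240 and 727 counts (3.35-fold). Trp63, the master regulator of squamous epithelium, held 338, 513 and 896 counts (2.17-fold), with 10 of 16 regions higher, but its log2 ratio was 0.80 with chromosome medians at 0. Ovol2 was not stable: its sum gave a log2 ratio of 1.17, which was 0.72 with chromosome medians at 0, and the median over its regions was -0.021. Esrp1 was at 1.77 as a median over its regions, and Grhl2 at 2.26 near its gene ends. Gata3 and Klf4, both expressed in differentiating epidermis, did not reach 2-fold, with log2 ratios of 0.31 and 0.05.

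Adhesion genes followed, unevenly between junction types. Of 24 measured genes of adherens and tight junctions, 10 were higher and 0 lower, with a median log2 ratio of 0.92. Cldn8, a tight junction claudin, held 24, 64 and 236 counts (8.06-fold). Cdh1, which encodes E-cadherin, held 190, 586 and 746 counts (3.22-fold), and Cdh3, which encodes P-cadherin, held 343, 700 and 1013 (2.42-fold). Both cadherins were lowest in the control column, while in CPM E-cadherin was highest in the Fat1 cKO Epcam+ column (42.1, 160 and 136 CPM). Epcam as a sum held 305, 819 and 725 counts, most in the Fat1 cKO Epcam+ column, and did not reach 2-fold (log2 ratio 0.96, interval 0.77 to 1.16). Of its 6 regions only the promoter region and 1 at 19, 54 and 50 counts passed it, and the 2 regions farthest below were at log2 ratios of -0.30 and -0.12. Tjp1, a scaffold of tight junctions, was at -0.22.

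Desmosomes, the junctions that tie keratin filaments between keratinocytes, were among the highest groups. Of 15 genes 11 were higher and 0 lower, with a median log2 ratio of 1.57, and 64 of 88 member regions were higher. The desmosomal cadherins Dsc3 (132, 306 and 806 counts, 5.01-fold) and Dsg3 (108, 308 and 600, 4.55-fold) led the group. Dsp, the plaque protein desmoplakin, held 171, 539 and 721 counts (3.46-fold) with all 8 member regions higher. Cdsn and Pkp2 did not reach 2-fold (-0.48 and -0.18). Pkp1 and Ppl had log2 ratios of 1.09 and 1.16, which were 0.86 and 0.85 with chromosome medians at 0, and Pkp3 was at 1.57 as a sum and at 0.51 near its gene ends. Near their gene ends Pkp1 and Dsg3 were at 1.72 and 2.84.

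Hemidesmosomes, which anchor basal cells to the basement membrane, did not follow the desmosomes. Of 13 genes 0 were higher and 1 lower, with a median log2 ratio of -0.03, and of their 142 member regions 38 were higher and 28 lower, near the shares over all members (28.4% and 19.3%). Itgb4, the integrin of these plaques, held 265, 287 and 317 counts (log2 ratio -0.03). At Lamb3, a chain of laminin 332, the promoter region held 59, 252 and 258 counts (3.58-fold higher) while a region inside the gene held 48, 57 and 4 (log2 ratio -3.25). The promoter region of Col17a1, the transmembrane collagen of these plaques, held 10, 53 and 64 counts (5.25-fold higher), and its gene sum stayed within 2-fold (0.94), with 2.18 near its gene ends. Lamb3 as a median over its regions was at -0.71. At Dst, the plakin dystonin, 1 start held 174, 109 and 69 counts (3.08-fold lower) and another held 31, 82 and 105 (2.78-fold higher). Col7a1, the anchoring fibril collagen, was the lower gene at -1.11, and near its gene ends it was at -0.05.

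Keratins split by type. All 7 basal and stress keratins were higher, at a median of 1.71, and 15 of their 16 member regions were higher. Krt17, a keratin of wounded and tumour epidermis, held 118, 376 and 658 counts (4.57-fold), Krt14 held 101, 447 and 394 (3.20-fold) and Krt5 held 68, 286 and 277 (3.34-fold). In CPM, Krt14 (22.4, 122 and 71.6) and Krt5 (15.1, 78.2 and 50.4) were highest in the Fat1 cKO Epcam+ column. Krt6b rested on 8, 25 and 23 counts (log2 ratio 1.06, 0.95 with chromosome medians at 0 and 0.94 as a median over its regions). Of 6 simple keratins 1 was higher and 1 lower. Krt18, a keratin of simple epithelia, held 175, 525 and 219 counts, a log2 ratio of 0.04 (interval -0.26 to 0.33), and Krt8 held 121, 374 and 175 (0.24, interval -0.10 to 0.59). Near its gene ends Krt18 was at 0.65, and as a median over its regions Krt8 was at -0.36. Krt18 was at 38.8 and 39.8 CPM in the compared columns and at 144 CPM in the Fat1 cKO Epcam+ column, and Krt8 at 26.8, 31.8 and 102 CPM in the same order.

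Late differentiation genes were higher too. Of 27 genes of the cornified envelope and barrier 21 were measured, and 15 of them were higher and 0 lower, with a median log2 ratio of 1.52. Tgm3, which crosslinks the envelope, held 76, 68 and 472 counts (5.09-fold), Casp14, the caspase of cornification, held 50, 46 and 309 (5.07-fold), and Krtdap held 47, 126 and 314 (5.48-fold). For Tgm3 and Casp14 the Fat1 cKO Epcam+ column was as low as the control column, unlike Tgm1 (65, 262 and 279 counts, 3.52-fold), another crosslinking enzyme, where it was high as well. The Casp14 promoter region held 8, 7 and 129 counts (13.2-fold), and as a median over its regions the gene was at 1.35. Krt10, a keratin of the first differentiated layer, did not share this, at 69, 61 and 50 counts (log2 ratio -0.72), and Lor, loricrin, was at 1.22 and at 0.95 with chromosome medians at 0.

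**Figure D4:**
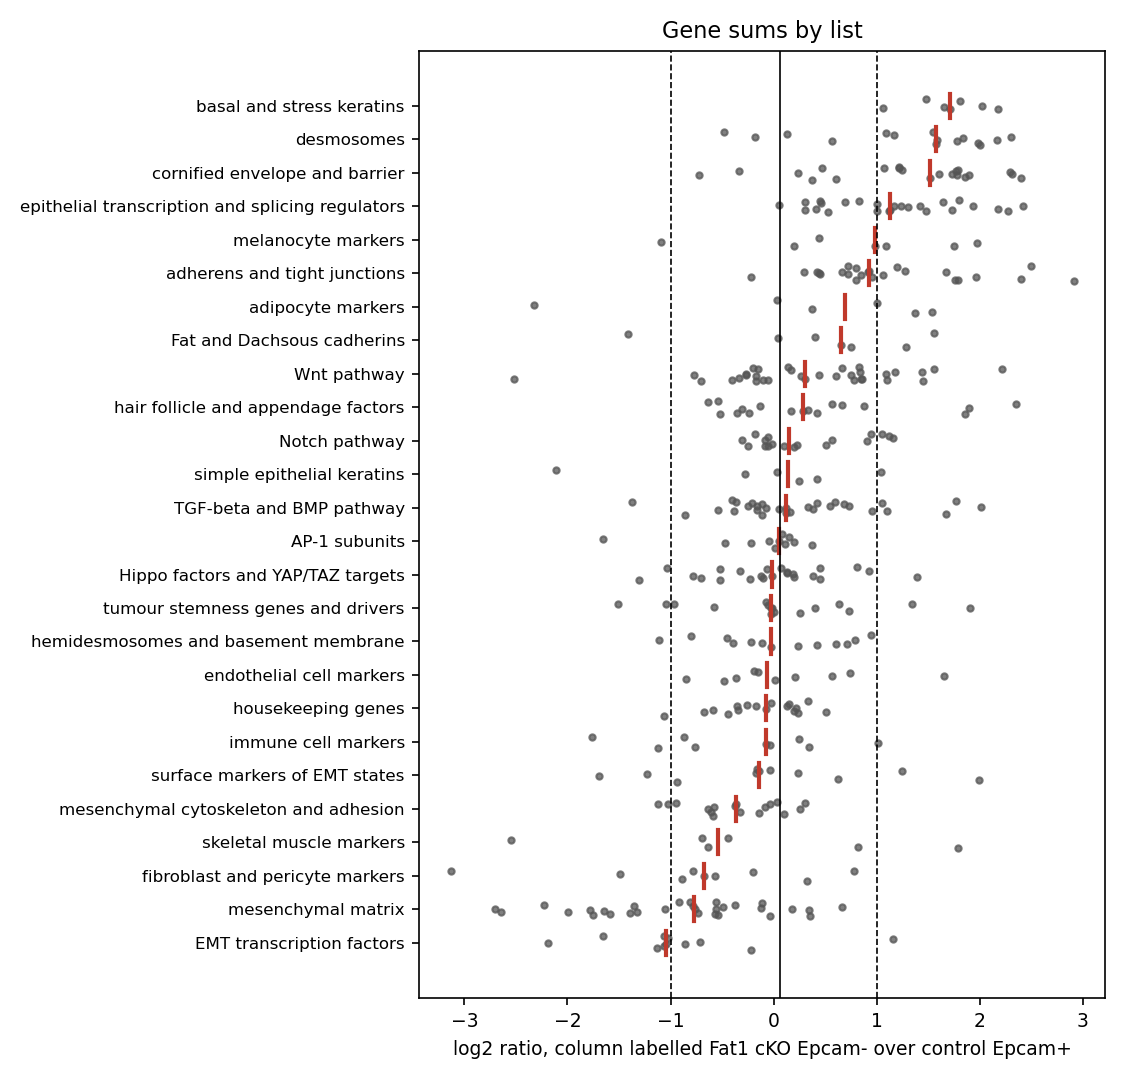
log2 ratio of each measured gene (points, x axis) in 26 lists (y axis, ordered by median), with the list median as a red bar, the median of all 15754 genes, 0.07, as a solid line and dashed lines at 2-fold. The basal keratin, desmosome, cornified envelope and epithelial regulator lists lie highest, and the EMT transcription factor list lies lowest with a median of -1.04.

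EMT transcription factors were lower. Of 11 factors 7 were lower and 1 higher, at a median log2 ratio of -1.04, and of their 77 member regions 49 were lower and 2 higher. Twist2 held 581, 285 and 154 counts over 12 regions (4.60-fold lower, log2 ratio -2.18, interval -2.47 to -1.94), and all 5 of its member regions were lower. Near its gene ends Twist2 was at -1.06. Prrx1, a homeobox factor of mesenchyme, held 442, 158 and 169 counts (3.19-fold lower), with 8 of 10 regions lower. Both were highest in the control column, and Prrx1 was low in both Fat1 cKO columns.

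The other factors were close to the 2-fold line. Zeb1 held 858, 471 and 512 counts (log2 ratio -1.03), Zeb2 659, 575 and 383 (-1.06), Snai1 593, 318 and 346 (-1.06), Twist1 357, 285 and 210 (-1.04) and Tcf4, an E protein partner of Twist factors, 1457, 808 and 808 (-1.14). As a median over the regions of the gene, Zeb1 (-0.91), Snai1 (-0.65), Twist1 (-0.65) and Tcf4 (-0.85) were within 2-fold, and Zeb2 was just inside the line when only regions within 10 kb counted. Zeb1 was at -1.67 within 10 kb and Zeb2 at -1.65 near its gene ends, while Snai1 was at -0.59 near its gene ends. Single regions were much lower than the sums: 142, 79 and 11 counts at 1 inside Zeb1 (log2 ratio -3.71), 144, 78 and 23 at 1 beyond Snai1 (-2.81) and 113, 28 and 6 at 1 inside Twist2 (-4.06). At promoters the differences were smaller. The Twist1 promoter region held 277, 203 and 147 counts (2.30-fold lower), that of Zeb2 139, 98 and 87 (1.95-fold lower), and that of Snai1 73, 62 and 98 (log2 ratio 0.14). Snai2 stayed within 2-fold (-0.22), and Snai3, with 151, 361 and 414 counts at 1 region, was the higher factor (2.25-fold).

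Matrix genes leaned to the same side. Of 30 mesenchymal matrix genes 12 were lower and 0 higher, with a median log2 ratio of -0.77, and 79 of 161 member regions were lower and 13 higher. Col1a2, a chain of collagen I, held 676, 232 and 125 counts (6.60-fold lower), Col6a2 held 537, 271 and 103 (6.36-fold) and Col6a3 held 664, 341 and 171 (4.74-fold). In these collagens all the member regions of Col1a2 (6) and Col6a2 (7) and 9 of 10 of Col6a3 were lower, and the Fat1 cKO Epcam+ column lay between the others. Col1a2 lies on chromosome 6, whose regions lean lower. Near their gene ends Col6a2 was at -1.79 and Col6a3 at -3.03.

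The other chain of collagen I was unlike Col1a2: Col1a1 held 314, 269 and 260 counts and did not reach 2-fold (log2 ratio -0.56). Promoter regions of the group included Col6a3 (41, 6 and 4 counts, 12.5-fold lower) and Fbn1, fibrillin (204, 90 and 29, 8.58-fold lower). Fn1, fibronectin, stayed within 2-fold at -0.92, as did Postn (-0.81) and Mmp14 (-0.12). As a median over their regions Fn1 was at 0.29 and Col1a1 at 0.08, and near its gene ends Mmp14 was at 0.91. Fbn1 was at -1.36 as a sum and at -0.93 as a median over its regions. Dcn was at -1.39 as a sum and at -0.31 near its gene ends. Of 17 genes of the mesenchymal cytoskeleton and adhesion 2 were lower and 0 higher, with a median of -0.37: Cdh11, a mesenchymal cadherin (284, 194 and 158 counts, 2.19-fold), and Cald1 (-1.03, but -0.76 with chromosome medians at 0 and -0.71 near its gene ends). Vim, the intermediate filament of mesenchymal cells, held 466, 326 and 294 counts and was just inside the line (-0.95, interval -1.17 to -0.74).

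**Figure D5:**
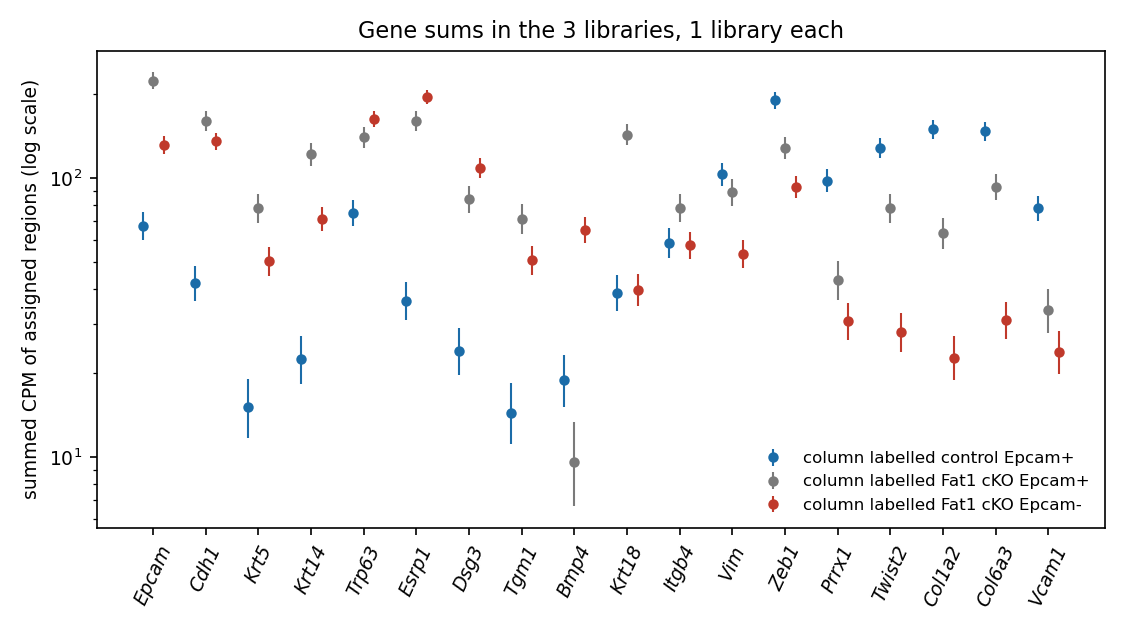
Summed CPM over the regions of 18 genes (y axis, log scale) in the 3 libraries, with exact Poisson 95% intervals as bars. From Epcam to Tgm1 the control column is the lowest, for Krt18 and Itgb4 it lies beside the Epcam- column, and from Vim to Vcam1 it is the highest.

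Surface markers used to sort tumour states did not move as a block. Of 11 genes 2 were higher and 2 lower, with a median log2 ratio of -0.14. Vcam1, an adhesion receptor, held 352, 123 and 131 counts (3.28-fold lower) and Itgb3, an integrin, 580, 627 and 300 (2.36-fold lower). Near its gene ends Itgb3 was at -0.75. Prom1 held 28, 37 and 143 counts (4.19-fold higher) and Cd24a 103, 145 and 301 (2.40-fold higher, log2 ratio 0.99 with chromosome medians at 0 and 0.55 as a median over its regions). Cd44, the hyaluronan receptor, held 23 member regions of which 4 were higher and 2 lower (sum -0.14).

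Markers of other cell types were read beside these groups. Of 9 measured fibroblast and pericyte markers 2 were lower and 0 higher (median log2 ratio -0.68), with a summed level of 528, 570 and 341 CPM. Pi16, a marker of adventitial fibroblasts, held 37, 5 and 3 counts, and Pdgfrb, the pericyte receptor, 294, 109 and 126 (2.85-fold lower), while Pdgfra (-0.79) and Dpt (-0.68) stayed within 2-fold as sums but were at -2.17 and -2.10 near their gene ends. These markers moved in the same direction as the matrix genes, and their part in that result was not tested. The immune markers (9 of 15 measured) had a median of -0.08 with 1 higher and 2 lower, at 159, 152 and 135 CPM, and near gene ends their median was -0.77, on the side of the matrix genes. Ptprc, the pan-leukocyte CD45, held 225, 173 and 260 counts (-0.08, and 0.94 within 10 kb). The 10 endothelial markers had a median of -0.07 with 1 higher and 0 lower. The 7 measured melanocyte markers had 3 higher and 1 lower (median 0.98), led by Kit (5, 9 and 31 counts) and Dct (55, 46 and 232), but their summed level was lower in the Epcam- column (262, 256 and 201 CPM), and of their 25 member regions 7 were higher and 8 lower. The muscle and adipocyte lists, with 6 measured genes each, had 1 higher and 1 lower, and 3 higher and 1 lower. Of 17 housekeeping genes 0 were higher and 1, Gusb, was lower (median -0.08).

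Of the BMP ligands listed Bmp4 and Bmp7 were higher, while Bmp2 and the TGF-beta ligands stayed within 2-fold. Both act through paired serine kinase receptors and Smad proteins, with TGF-beta a known inducer of EMT. Of 30 pathway genes 5 were higher and 1 lower, with a median log2 ratio of 0.12. Bmp7 held 257, 866 and 1271 counts (4.05-fold higher) with 11 of 12 member regions higher, and Bmp4 held 85, 35 and 359 counts (3.46-fold), with its promoter region at 10, 9 and 151 (12.4-fold). Near its gene ends Bmp4 was at 3.39. The 2 genes differed in the Fat1 cKO Epcam+ column, which was high for Bmp7 and low for Bmp4. Bmp2 held 294, 130 and 543 counts (log2 ratio 0.60). Nog, a secreted BMP antagonist, held 54, 43 and 216 counts (3.28-fold), although the median over its regions was 0.52. The ligands Tgfb1, Tgfb2 and Tgfb3 had log2 ratios of -0.16, -0.39 and -0.54, and the receptors Tgfbr1 and Tgfbr2 0.34 and 0.39, all within 2-fold as sums. As a median over its regions Tgfbr1 was at 1.38. Ltbp2, which binds latent TGF-beta in the matrix, was the lower gene (981, 859 and 459 counts, 2.61-fold) and was at -0.90 near its gene ends.

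Wnt genes lay on both sides. Of 33 measured genes 7 were higher and 1 lower, with a median log2 ratio of 0.30. Dkk2, a secreted modulator of Wnt receptors, held 560, 113 and 117 counts (5.84-fold lower), all 9 of its member regions were lower, and both Fat1 cKO columns were low. Fzd10, a Wnt receptor, held 224, 343 and 1283 counts (4.70-fold higher) with 10 of 12 regions higher, and its promoter region held 24, 33 and 257 (8.78-fold). Sfrp1, a secreted Wnt antagonist, held 202, 190 and 732 counts (2.97-fold). The promoter region of Wnt3 held 13, 5 and 87 counts (5.49-fold). Wnt4 and Wnt5a were at 1.18 and 1.09, and at 0.67 and 0.59 with chromosome medians at 0, and as medians over their regions at 0.88 and 0.95. Fzd10 was at 3.03 near its gene ends. Canonical effectors such as Tcf7l2 (-0.10) and Axin2 (0.61) did not reach 2-fold.

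In the Notch pathway, which drives differentiation of suprabasal keratinocytes, 3 of 18 genes were higher and 0 lower (median 0.15). These were Hey2, a target repressor (191, 326 and 524 counts, 2.25-fold), and the ligands Dll1 (421, 378 and 1121, 2.18-fold) and Jag2 (211, 327 and 538, 2.09-fold). All 3 were under 2-fold with chromosome medians at 0 (0.91, 0.93 and 0.78), and as medians over their regions Dll1 and Jag2 were at 0.74 and 0.20. The receptors Notch1 (0.22) and Notch2 (-0.06) did not reach 2-fold.

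Hippo factors and YAP/TAZ targets, which have been tied to Fat cadherins, were near the background. Of 23 genes 1 was higher and 2 lower, with a median of -0.01. Yap1 held 622, 424 and 989 counts (0.38), and the targets Ccn1 (849, 687 and 1025 counts) and Ccn2 (222, 171 and 216) were at -0.02 and -0.32. Axl, a receptor kinase target, held 714, 450 and 350 counts (2.49-fold lower), and was at -0.45 near its gene ends and just inside the line with chromosome medians at 0. Foxf2, a forkhead factor, held 58, 87 and 190 (2.69-fold higher). Of 11 AP-1 subunit genes 0 were higher and 1 lower, Batf2 at 25, 11 and 8 counts, with a median of 0.06, and Fos was at 0.06 and Jun at 0.38.

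Among hair follicle and appendage factors, 3 of 17 were higher and 0 lower (median 0.29). Hoxc13, a homeobox factor of the hair shaft, held 49, 32 and 316 counts at 1 region (5.29-fold), Msx2 held 90, 66 and 416 (3.79-fold) and Lhx2, a stem cell factor, 160, 167 and 714 (3.66-fold). In each the Fat1 cKO Epcam+ column was as low as the control column. At Runx1, a stem cell and tumour factor, the region over 1 start held 177, 132 and 35 counts (6.17-fold lower) and the region over another 247, 256 and 346 (1.15-fold higher), and the sum was at -0.64.

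Tumour stemness genes and drivers were 2 higher and 2 lower of 16 (median -0.02). Pitx1, a homeobox factor of skin carcinoma stem cells, held 40, 117 and 189 counts (3.87-fold higher). Hmga2, a chromatin protein of invasive tumour cells, held 900, 600 and 384 (2.86-fold lower, 8 of 12 regions lower, -0.96 near its gene ends). Sox2, a stem cell factor of these carcinomas, held 444, 106 and 261 counts (-1.05), of which the promoter region held 192, 51 and 162 (-0.53) and a region farther out 147, 25 and 43 (interval of the log2 ratio -2.59 to -1.56). Without distant regions Sox2 was under 2-fold (-0.62 within 10 kb), as it was as a median over its regions (-0.97). The tumour suppressor Cdkn2a held 167, 81 and 519 counts (2.55-fold higher) on chromosome 4 and was at 0.82 with chromosome medians at 0 and 0.95 as a median over its regions.

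Fat1 and its relatives went both ways. Fat1 itself is described above, and its log2 ratio of 0.65 was the median of the 7 genes of its list, of which 2 were higher and 1 lower. Fat2, the keratinocyte member, held 204, 486 and 739 counts (2.97-fold higher), Fjx1, a Golgi kinase that modifies cadherins of this family, 131, 76 and 394 (2.47-fold, 0.84 with chromosome medians at 0), and Dchs1, a ligand of Fat4, 346, 78 and 157 (2.69-fold lower). Fat4 held 168, 97 and 271 counts, at 0.40 as a sum and -0.36 as a median over its regions.

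Over all genes with at least 2 regions and 100 counts in 1 library, the largest ratio on each side was at an unlisted gene. Cldn8, of the junction list, came next on the higher side. Aqp1, a water channel, held 471, 123 and 42 counts and was 13.7-fold lower (log2 ratio -3.70, interval -4.27 to -3.32), with 204, 26 and 14 at its promoter region (17.8-fold). Cdc45, a replication factor, held 267, 127 and 28 (11.6-fold lower), in 2 regions inside the gene (191, 84 and 12 counts, and 76, 43 and 16), while the region over its promoter, which is not part of this sum, was even (214, 166 and 264, log2 ratio 0.02). Foxs1, a forkhead factor of the vessel wall, held 296, 48 and 40 (9.03-fold), Gria1, a glutamate receptor, 667, 395 and 93 over 17 regions (8.75-fold), and Kcna5, a potassium channel, 530, 85 and 91 (7.11-fold). Foxs1 was at -2.19 and Ptgir at -1.61 near their gene ends, and Gria1 at -2.22 as a median over its regions. In Foxs1 and Kcna5 both Fat1 cKO columns were low, and in Gria1 the Fat1 cKO Epcam+ column was closer to the control column. Rcn3, Sohlh2, Lefty1 and Ptgir were also among the 10 lower genes.

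On the higher side stood Glp1r, the incretin receptor, with 26, 33 and 300 counts (9.46-fold, log2 ratio 3.15, interval 2.66 to 3.88), then Cldn8. Acer1, the alkaline ceramidase of epidermis, held 20, 22 and 193 counts (7.91-fold), Lrat, which esterifies retinol, 40, 37 and 357 (7.32-fold), and Pglyrp3, a peptidoglycan recognition protein of skin, 35, 102 and 293 (6.86-fold). Near their gene ends Glp1r and Acer1 were at 2.27 and 2.17. For Glp1r, Acer1 and Lrat the control and Fat1 cKO Epcam+ columns had like counts. Mtnr1b, Tox3, Mpped2, Adgrf2 and Il19 completed the 10 higher genes.

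The largest single regions, among those with 50 counts in 1 library, were on the lower side. A region inside Zfp568, at chr7:30009490-30010991, held 263, 197 and 3 counts (107-fold, log2 ratio -5.90, interval -9.03 to -5.18). One inside Fto, at chr8:91615592-91616413, held 183, 76 and 2 (112-fold, log2 ratio -5.68, interval -9.86 to -4.93), and one inside Trim66 400, 295 and 11 (44.4-fold). Regions near Dysf (86, 14 and 0 counts) and inside Slit3 (63, 4 and 0) were at least 35.0-fold and 25.6-fold lower with the 0 read as 3 counts in that library. Of the 10 lower regions with the largest ratios 4, at Zfp568, Trim66, Rexo5 and Trim3, lie on chromosome 7.

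With 1 exception the higher regions had smaller ratios than the 10 lower ones. The exception, near an unnamed gene model on chromosome 12, held 0, 1 and 113 counts (at least 30.9-fold, log2 ratio 5.58). Regions inside Mmd at chr11:90269046-90269688 (1, 12 and 76 counts) and inside Bdnf, the neurotrophin, at chr2:109709306-109710010 (1, 18 and 57) had log2 ratios of 4.43 (interval 3.44 to 11.3) and 4.03 (3.01 to 10.9). A region beside Sfn, the epithelial 14-3-3 protein, at chr4:133598693-133599028 held 2, 25 and 75 (log2 ratio 4.00, interval 3.04 to 8.01), and 1 inside Kazn, a desmosome-associated protein, 5, 34 and 122 (3.87). All 10 lower regions were called as peaks in Fat1 cKO Epcam- and not in control Epcam+, and all 10 higher regions the reverse. None of the 20 lay over a promoter window.

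Regions of 1 direction lay side by side. Taking neighbouring members along a chromosome, 552 unbroken runs of at least 5 higher regions were found and 78 of at least 10, against 247 and 24 for lower regions. More members were higher (28.4%) than lower (19.3%), and the number and length of runs were not adjusted for these shares. A higher run of 28 regions covered the desmosomal cadherin cluster from Dsc2 to Dsg2 (104, 375 and 489 CPM). Others included 22 regions around Foxq1 and Foxf2 and 19 across the Serpinb gene cluster of chromosome 1, which holds protease inhibitors of squamous cells (36.6, 53.9 and 182 CPM), and 17 beside Gata3. Of the 7 member regions assigned to Gata3 itself 2 were higher, so most of that run, which spans 829 kb, lies beyond the 50 kb limit.

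Lower runs were shorter, and several lay at matrix genes. The longest had 16 regions at Sox5, a neural crest and cartilage factor (240, 200 and 46.5 CPM). Runs of 15 covered Col6a2 and Col6a1 on chromosome 10 (220, 144 and 47.3 CPM), Adamts12, Grm7, and Aqp1 (298, 64.0 and 28.2 CPM), and runs of 14 covered Col6a3 and Col1a2. A run of 13 went from Twist1 into Hdac9 (199, 127 and 50.4 CPM). Of the 10 longest lower runs 5 lie on chromosome 6, where 29.9% of members were lower against 19.3% overall.

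Many genes had regions in both directions. Of 15577 genes with a member region, 2386 (15.3%) had at least 1 higher and 1 lower region, and among the 3671 genes with 5 or more members the share was 51.3%. With 28.4% of all members higher and 19.3% lower, a gene with many regions can hold both from these shares alone. What they alone would give was not computed, so 51.3% is not shown to exceed it. As sums, 2250 of the 2386 were within 2-fold. Frmd4a, a polarity scaffold, had 13 higher and 13 lower of 40 regions (sum -0.23), Slit3, a guidance ligand, 12 and 13 of 43 (-0.11), and Foxp1, a forkhead factor, 11 and 19 of 45 (-0.61). In such genes an even sum stood over regions that differed in opposite directions.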

How the data were processed

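ATAC-seq of 3 libraries of sorted tumour cells, 1 per group, was deposited by the authors in 1 table, per the file headers: a raw count per library for each merged region, and a yes or no call (other values) of a peak. The submitters' processing notes list MACS2 2.1.0.20151222, Picard, SAMtools and Bowtie2 2.2.6 without saying what each did, and give mm10 (GRCm38) as the build. How counts were made (from reads or fragments, by which tool, with which filters or Tn5 shift) and how peaks were thresholded are points not given in the sources used here. Column names are the sample titles, and this match assigned them.

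The 2 mitochondrial regions were left out. Total counts were 7122115, 6647179 and 9304031 and nuclear counts 4335304, 3812880 and 5485317 in the libraries labelled control Epcam+, Fat1 cKO Epcam+ and Fat1 cKO Epcam-, and 3 counts equal 0.665, 0.820 and 0.545 CPM. Library sizes used TMM factors (1.04, 0.959 and 1.00) of edgeR 4.0.16 in R 4.3.3, with DESeq2 1.42.0 size factors as an alternative. CPM, log2 ratios by edgeR's formula (prior count 2), folds of CPM without it, and 95% Clopper-Pearson intervals were computed in Python 3.11.15 with scipy 1.17.1, and the ratio step was tested on simulated data. Nothing was tested between groups, since each is 1 library.

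Regions were assigned to protein-coding genes of a RefSeq table of GRCm38, and promoter windows came from RefSeq GRCm38.p6. Of 420 listed genes in 26 lists, 279 had a window and 208 a member region over one. A gene needed 20 counts in 1 of the 2 columns. The members and lists were chosen with earlier results of these data known. Genes to be named were Epcam and Fat1, then up to 5 per direction in each list and any regulator, keratin, junction gene, EMT factor or ligand with a known role, then the 10 largest ratios per direction over all genes (at least 100 counts in 1 library, 2 regions, no unnamed models or copy families), and likewise the 10 largest regions per direction (at least 50 counts, autosomes). Some genes and 1 run of regions that these rules select are not reported here. Alternatives were total counts, DESeq2 size factors, no minimum or a minimum of 50, prior counts of 0.5 and 5, called regions only, autosomes only, each chromosome's median set to 0, and for genes regions within 10 kb or within 1 kb of a gene end, and the median over regions.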

Additional observations from a re-analysis of the deposited data

Results flagged for a closer look

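The table's 2 mitochondrial regions, which no comparison uses, held more of the counts in both libraries labelled Fat1 cKO than in the library labelled control. Their share was 41.04% in the library labelled Fat1 cKO Epcam- (95% Clopper-Pearson interval 41.0 to 41.1) and 42.64% in that labelled Fat1 cKO Epcam+ (42.6 to 42.7), against 39.1% in that labelled control Epcam+ (39.1 to 39.2). If the names of the count columns are the exchanged ones, 41.04% is the share of the control Epcam+ cells and 39.1% that of the Fat1 cKO Epcam- cells, and only the Fat1 cKO Epcam+ library is above the control. The intervals cover counting error only, and with 1 library per group the difference was not tested.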

How the results depend on the processing

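Each group is 1 library, so no library could be left out and biological spread is unknown. No paired analysis was possible because the labels carry no replicate numbers and each group has 1 library. Depth limits the precision of low regions, where 3 counts equal 0.665 CPM in the control column and 0.545 CPM in the Epcam- column.

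Counts of regions moved with the minimum. With no minimum 19342 regions were at least 2-fold lower, and with a minimum of 50 counts 8928 were higher and 5410 lower, since fewer regions were tested. At 50 counts the median of regions called only in Fat1 cKO Epcam- was -2.30. From regions within 1 kb of a gene end 499 genes were lower and the immune marker median was -0.77. With each chromosome's median at 0, 15479 regions were higher and 14321 lower. The median of all regions was 0.14 with total counts and 0.16 with DESeq2 size factors. The median over its regions put Ovol2 at -0.021, against 1.17 as a sum. The cause of these shifts, other than the minimum, was not tested. Of 208 alternative values of list medians, 207 stayed within 1.5-fold. A turn of direction was counted only for lists whose median was at least 2-fold from even, and 0 of those turned. Changes of sign in lists with medians nearer to even were not counted. Of 155 listed or named genes at least 2-fold apart, 50 came under 2-fold in at least 1 alternative: 29 with chromosome medians at 0, 29 as a median over regions, 19 near gene ends, 7 within 10 kb, 6 with total counts and 4 with DESeq2 size factors.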
